A study of Mus musculus with 12 samples.

Results

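Protein kinase C alpha becomes competent only after other kinases have phosphorylated it, and this account follows the 9 genes that encode that machinery in the mouse left ventricle. They are Pdpk1, Mtor, Rictor, Mapkap1, Mlst8, Prr5, Prr5l, Phlpp1 and Phlpp2. They were chosen by name, as the kinase PDK1, the subunits of the mTORC2 complex and the PHLPP phosphatases. They were not picked by their measured values, but earlier results of these data were known when they were chosen. All 9 were found among the 55401 genes of the deposited count table, and all 9 passed the filter on low counts, which 17699 genes passed. After transverse aortic constriction (TAC), wild-type ventricles held less Mtor and Phlpp1 RNA and more Prr5 and Prr5l RNA than after a sham operation. With library totals in place of scaling factors, both rises were called but neither fall was, and the sign of Phlpp1 turned. In T497A ventricles Prr5l alone passed the test against sham. In that comparison the sham group also differs in sex by its transcripts. For Mtor, Prr5 and Phlpp1 the TAC response itself differed between the genotypes, beside 29.5% of all genes tested. The T497A sham group enters this difference, so sex cannot be told apart from genotype or surgery in it. The Phlpp1 difference was not called with library totals alone.

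Messenger RNA of left ventricle was sequenced from 12 samples in 4 groups of 3, which were wild type (WT) or Prkca T497A, each after sham or TAC surgery. All animals were operated on at 10 weeks of age and sampled 1 week later, at 11 weeks. TAC ties the aorta down to the width of a 27-gauge needle and so raises the pressure that the ventricle has to overcome. T497A replaces the activation-loop threonine of protein kinase C alpha with alanine. The sources used here give neither the strain, the sex of the animals nor how the mutant line was made. The cell type label reads cardiomyocyte and the tissue label reads left ventricle. Markers of other cells were present in every library, so the values are treated as those of ventricular tissue. In bulk tissue, fewer cells of a type and less RNA per cell cannot be told apart.

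Protein kinase C alpha, encoded by Prkca, matures through a fixed series of phosphorylations. PDK1 phosphorylates the activation loop, and the turn motif and the hydrophobic motif near the end of the protein are then occupied in a manner that depends on mTORC2. The phosphatases PHLPP1 and PHLPP2 act in the other direction, on the hydrophobic motif of protein kinase C and of its relative Akt, and a dephosphorylated kinase is prone to degradation. In the heart these enzymes also serve Akt, which couples insulin and growth factor signals to growth and survival of cardiomyocytes, and protein kinase C alpha itself is known as a brake on contractility. Phosphorylation was not measured here: the values are RNA levels.

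The 3 sites on which the machinery acts are shown as they stand in the wild-type coding sequence of Prkca (GENCODE M21 transcript, GRCm38, chromosome 11, minus strand), because the mutation removes the first of them. Each line gives 27 bases of coding exon in the sense of the gene, with the codon of the phosphorylated residue in capitals.
Prkca T497, activation loop, codon at chr11:107978267-107978269: gtcacgaccaggACCttctgtgggact
Prkca T638, turn motif, codon at chr11:107939621-107939623: cagcctgtcttaACAccaccagatcag
Prkca S657, hydrophobic motif, codon at chr11:107939564-107939566: tttgaagggttcTCGtatgtcaacccc
The activation-loop threonine is the target of the Pdpk1 product. The other two codons encode the residues whose occupancy depends on mTORC2, and the last is the residue on which PHLPP acts. A table of read counts per gene carries no base calls, so the mutation could not be read from it.

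The promoters of the 4 members that passed the test in WT ventricles after TAC are shown because 2 of these genes rose and 2 fell. Sequences are from RefSeq (GRCm38.p6), from 250 bases before to 50 bases after the annotated start, in the sense of the gene. Capitals mark matches to the GC box GGGCGG on either strand.
Prr5 promoter, chr15:84662956-84663255, plus strand: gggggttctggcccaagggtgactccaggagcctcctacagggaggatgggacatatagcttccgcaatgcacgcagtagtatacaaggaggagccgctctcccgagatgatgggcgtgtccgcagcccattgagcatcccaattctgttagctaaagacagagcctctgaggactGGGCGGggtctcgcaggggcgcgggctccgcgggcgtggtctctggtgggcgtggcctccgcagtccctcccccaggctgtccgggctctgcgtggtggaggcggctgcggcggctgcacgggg
Prr5l promoter, chr2:101882978-101883277, minus strand: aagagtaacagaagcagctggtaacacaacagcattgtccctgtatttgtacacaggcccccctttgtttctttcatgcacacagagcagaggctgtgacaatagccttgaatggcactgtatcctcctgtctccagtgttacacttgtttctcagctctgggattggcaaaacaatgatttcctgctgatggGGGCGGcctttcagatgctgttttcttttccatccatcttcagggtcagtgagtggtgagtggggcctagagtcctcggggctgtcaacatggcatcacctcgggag
Mtor promoter, chr4:148448332-148448631, plus strand: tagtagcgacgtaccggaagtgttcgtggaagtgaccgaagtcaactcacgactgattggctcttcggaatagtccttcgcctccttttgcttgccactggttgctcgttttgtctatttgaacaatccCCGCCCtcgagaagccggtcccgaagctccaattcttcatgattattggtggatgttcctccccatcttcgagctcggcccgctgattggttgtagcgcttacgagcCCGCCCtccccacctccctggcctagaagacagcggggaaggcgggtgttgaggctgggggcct
Phlpp1 promoter, chr1:106171619-106171918, plus strand: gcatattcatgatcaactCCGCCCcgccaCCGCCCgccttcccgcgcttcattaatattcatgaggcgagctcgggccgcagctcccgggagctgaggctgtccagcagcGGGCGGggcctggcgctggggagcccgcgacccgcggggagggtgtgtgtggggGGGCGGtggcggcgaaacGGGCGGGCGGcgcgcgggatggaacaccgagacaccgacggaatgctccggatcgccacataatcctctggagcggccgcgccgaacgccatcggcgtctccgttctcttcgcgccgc
The GC box occurred 1 time in the Prr5 window, 1 time in that of Prr5l, 2 times in that of Mtor and 6 times in that of Phlpp1, where the last 2 matches overlap. It occurred in 35.7% of 32851 RefSeq promoter windows of this length. Searches on both strands for AP-1 (TGANTCA, in 7.81% of windows), a forkhead motif (GTAAACA, 3.65%), the E-box CACGTG (7.15%), an NFAT core joined to part of an AP-1 site (1.55%), the cyclic AMP response element TGACGTCA (1.79%) and the TATA box TATAAA (13.6%) found none of these letters in the 4 windows. Prr5 and Prr5l have other annotated starts, and a second Prr5 window that begins at base 84680748 of chromosome 15 holds 3 GC boxes. The Prr5 window printed above ends before the GENCODE M21 model of the gene begins, at base 84669620, whereas the second window lies within that model. The other Prr5l windows, chr2:101838931-101839230 and chr2:101797658-101797957, hold no GC box, and the first of them holds 1 TATA box. Which start the counted RNA came from was not tested.

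Total counts ran from 58932759 to 72594085 per library. The levels are read counts relative to library size (CPM) scaled with TMM factors, which correct for a few abundant genes taking a larger share of a library. These factors were 1.13 to 1.21 in the WT TAC libraries and 0.910 to 0.988 in the other 9, so values that involve WT TAC depend on the scaling, and both scalings are given below. The 3 T497A sham libraries carried Xist, which is transcribed from the inactive X chromosome, at 184 ± 28.3 CPM (SD, n = 3) and Y-linked Ddx3y at 0.252 CPM, whereas the other groups had a mean Xist level of 0.461 to 0.650 CPM and a mean Ddx3y level of 80.1 to 105 CPM. Sex therefore cannot be told apart from genotype between the sham groups, from surgery between T497A TAC and T497A sham, or from either in the interaction. WT TAC against T497A sham differs in genotype, surgery and sex at once. Summed over 6 cardiomyocyte markers, the level was 25763 to 30517 CPM in the WT TAC libraries and 46666 to 59975 CPM in the other 9. Fibroblast markers (4 genes) summed to 2427 to 4997 CPM in WT TAC against 677 to 1113 CPM elsewhere, and macrophage markers (4 genes) to 195 to 337 CPM against 99.4 to 157 CPM. The fibroblast markers rose unevenly between WT sham and WT TAC, with log2 fold changes of 0.44 to 4.09 and a median of 0.84. Atrial markers (3 genes) summed to 147 to 654 CPM in T497A sham against 16.3 to 173 CPM elsewhere. No marker of these 4 lists was at 0 in any group. The part of these shifts in the results on the 9 genes was not tested.

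A gene counts as called where edgeR's quasi-likelihood test gave an adjusted p (Benjamini-Hochberg, over the whole set of genes tested) under 0.05. Between WT TAC and WT sham, 49.9% of all genes tested were called (25.9% higher and 24% lower after TAC), and 4 of the 9 members were: Prr5 and Prr5l rose, and Mtor and Phlpp1 fell. Between T497A TAC and T497A sham, 24.4% of all genes were called (12.9% higher and 11.4% lower), and 1 member, Prr5l, rose. Between the sham groups, 5.79% were called (2.99% higher and 2.8% lower in T497A), and 1 member, Mtor, was lower in T497A. Between the TAC groups, 35.7% were called (17.8% higher and 17.9% lower in T497A), and of the members Mtor and Phlpp1 were higher and Prr5 was lower. For the interaction, which is the TAC effect in T497A minus that in WT, 29.5% of all genes were called (15.3% above 0 and 14.2% below), as were 3 members, with Mtor and Phlpp1 above 0 and Prr5 below. The members' shares lay near these backgrounds, so the counts alone say nothing particular about the 9 genes.

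**Figure D1:**
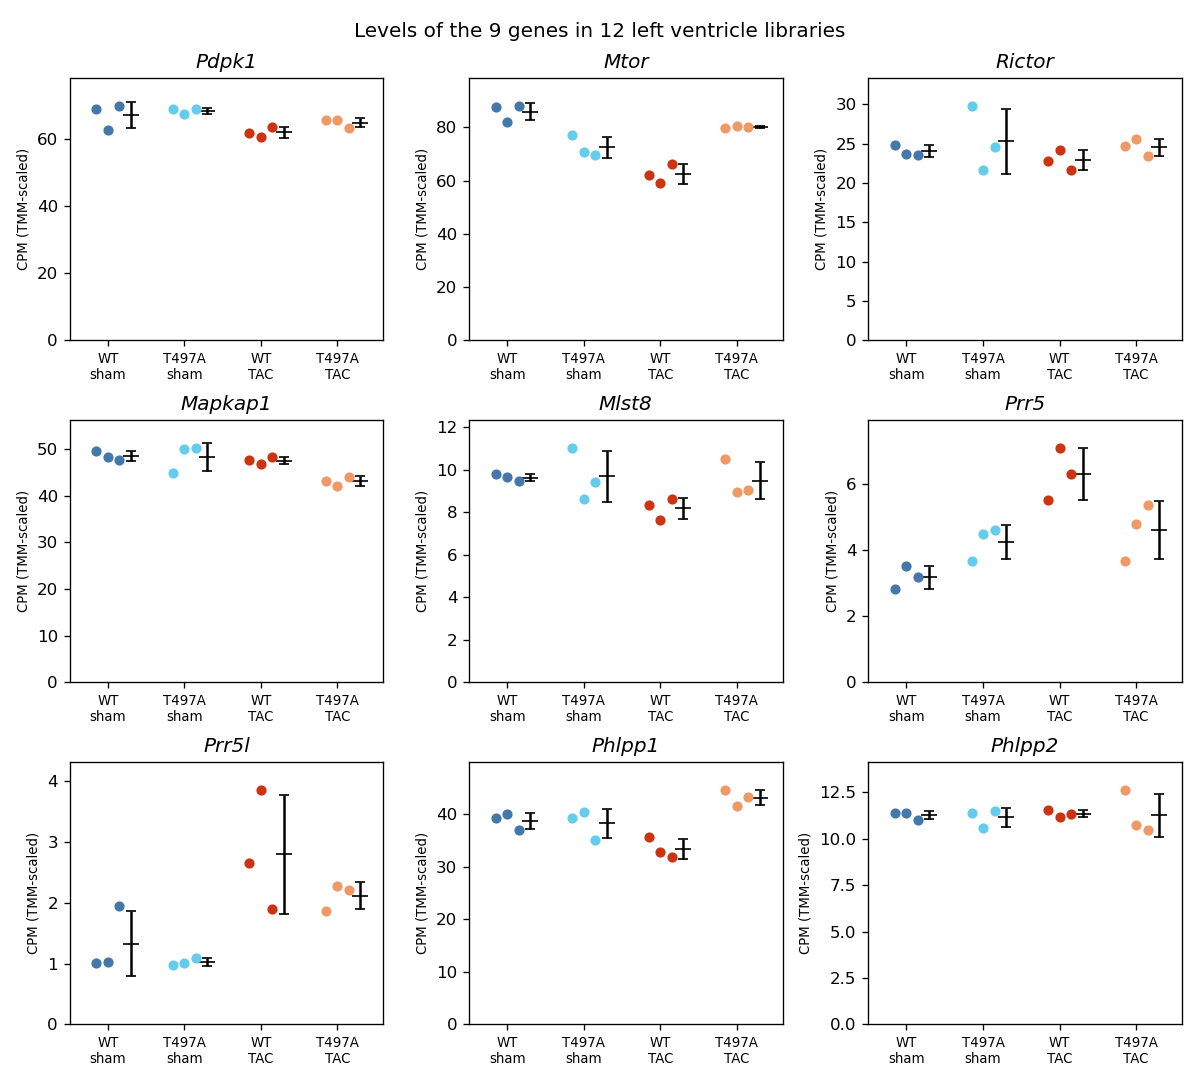
Level of each of the 9 genes in each of the 12 libraries, in CPM scaled with TMM factors, by group, with the mean and SD of 3 libraries beside the points; the vertical axes differ between genes and start at 0. The WT TAC libraries of Mtor lie at 59.0 to 66.4 CPM, below every library of the other groups, and those of Prr5 at 5.52 to 7.06 CPM lie above them.

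Per kilobase of exon, the scale on which different genes can be compared, the WT sham ventricle held Mapkap1 at 11.96, Mtor at 8.49, Pdpk1 at 6.14 and Phlpp1 at 5.75 CPM per kb. Their target Prkca stood at 4.93 CPM per kb. The lower members were Mlst8 at 2.17, Prr5 at 1.65, Rictor at 1.42 and Phlpp2 at 1.33 CPM per kb, and Prr5l was lowest at 0.267. Before any correction for length, the accessory subunits Prr5l (56 to 293 counts per library) and Prr5 (165 to 538) had the fewest counts of the 9 genes. The spread between libraries of a group, as a coefficient of variation, was 27.4% for Prr5l and 13.9% for Prr5, against 3.34% for Pdpk1.

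Pdpk1 (chr17:24073680-24150924, minus strand) encodes PDK1, the master kinase of the activation loop of protein kinase C, Akt, SGK and S6 kinase. Its level was 68.9, 62.7 and 69.7 CPM in the WT sham libraries and 68.9, 67.4 and 68.9 CPM in T497A sham. In the TAC groups it was 61.9, 60.5 and 63.5 CPM in WT and 65.8, 65.6 and 63.3 CPM in T497A. WT sham library 2 lay within the WT TAC range, so these groups overlapped. The log2 fold change after TAC was -0.12 ± 0.05 (SE, edgeR adjusted p = 0.091) in WT and -0.08 ± 0.05 (adjusted p = 0.34) in T497A. The genotypes differed by 0.03 ± 0.05 after sham (adjusted p = 0.84) and by 0.07 ± 0.05 after TAC (adjusted p = 0.37). The group order was T497A sham, WT sham, T497A TAC and WT TAC, and no neighbours in that order differed beyond their spread. Only the ends of the order, WT TAC against T497A sham, passed (-0.14 ± 0.05, adjusted p = 0.040), and these groups differ in genotype, surgery and sex. There 50.2% of all genes were called (25.6% higher and 24.6% lower in WT TAC), with 2 members higher (Prr5 and Prr5l) and 3 lower (Pdpk1, Mtor and Phlpp1). The Pdpk1 call was lost in 9 of 22 alternative analyses, 6 of which left out 1 library (WT sham 1, any T497A sham library, WT TAC 1 or WT TAC 2), and with library totals in place of TMM factors its sign turned, to 0.14.

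Mtor (chr4:148448611-148557683, plus strand) encodes the catalytic subunit of both mTOR complexes. Its level was 87.6, 82.1 and 87.8 CPM in WT sham, 77.0, 70.7 and 69.7 CPM in T497A sham, 62.0, 59.0 and 66.4 CPM in WT TAC, and 79.9, 80.4 and 80.2 CPM in T497A TAC. WT TAC was the lowest group and shared no value with any other, and the T497A TAC libraries lay between the T497A sham and WT sham ranges. In WT the log2 fold change after TAC was -0.46 ± 0.06 (edgeR adjusted p = 1.7e-05). In T497A it was 0.15 ± 0.06 and did not pass (adjusted p = 0.090). The difference between these responses was 0.60 ± 0.08 (adjusted p = 0.00014) and was called in all 21 alternatives in which it could be computed. After TAC, T497A ventricles held more Mtor RNA than WT ones (0.36 ± 0.06, adjusted p = 0.00031), although with library totals the difference was 0.11 and was not called (adjusted p = 0.13). After sham they held less (-0.24 ± 0.06, adjusted p = 0.026). That sham difference was not called when any of WT sham library 1, WT sham library 3, T497A sham library 2 or T497A sham library 3 was left out, with adjusted p of 0.10, 0.10, 0.075 and 0.11. Of the neighbours in the order WT sham, T497A TAC, T497A sham and WT TAC, the last pair differed beyond the spread (WT TAC against T497A sham -0.21, adjusted p = 0.0074), although library totals gave 0.07 for it. That pair differs in genotype, surgery and sex. With library totals the TAC response in WT was -0.13 and was not called (adjusted p = 0.074).

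Rictor (chr15:6708379-6800401, plus strand) encodes the scaffold that defines mTORC2. Its level was 23.6 to 24.9 CPM in WT sham, 21.6 to 29.7 CPM in T497A sham, 21.7 to 24.2 CPM in WT TAC and 23.4 to 25.5 CPM in T497A TAC. All 4 groups overlapped. Its log2 fold changes in the 4 comparisons of surgery within genotype and of genotype within surgery ran from -0.07 ± 0.10 to 0.10 ± 0.10, and none passed (lowest edgeR adjusted p = 0.45). Mapkap1 (chr2:34406771-34624950, plus strand) encodes SIN1, the subunit that presents substrates such as protein kinase C and Akt to mTORC2.

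The Mapkap1 level was 49.7, 48.3 and 47.7 CPM in WT sham, 44.9, 50.1 and 50.2 CPM in T497A sham, 47.6, 46.7 and 48.4 CPM in WT TAC, and 43.3, 42.2 and 44.1 CPM in T497A TAC. The T497A TAC libraries were the lowest and did not overlap any other group. Their difference did not pass, at -0.16 ± 0.06 against T497A sham (edgeR adjusted p = 0.0504) and -0.14 ± 0.06 against WT TAC (adjusted p = 0.071). The first was called in 7 of 22 alternatives, 2 of which left out 1 library (T497A sham 1, adjusted p = 0.018, or WT TAC 2, adjusted p = 0.042). The second was called in 3 of 23, among them library totals, with -0.39 (adjusted p = 6.1e-05), where the interaction of -0.43 was called too (adjusted p = 0.00064). In WT the TAC response was -0.03 ± 0.06 (adjusted p = 0.70). Mlst8 (chr17:24473551-24479078, minus strand) encodes a small subunit that both mTOR complexes share.

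The Mlst8 level was 9.77, 9.63 and 9.45 CPM in WT sham, 11.0, 8.64 and 9.44 CPM in T497A sham, 8.31, 7.64 and 8.61 CPM in WT TAC, and 10.5, 8.92 and 9.03 CPM in T497A TAC. WT TAC lay below the other groups without overlap, by a narrow margin, but its log2 fold change against WT sham was -0.23 ± 0.11 (edgeR adjusted p = 0.089). Exons of Bricd5 on the opposite strand cover 22.5% of the exon bases of Mlst8. Whether the counting used strand was not stated in the labels, so reads of these genes may be mixed.

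Prr5 (chr15:84669620-84703673, plus strand) encodes Protor-1, and Prr5l (chr2:101714285-101883027, minus strand) encodes its relative Protor-2. Both proteins bind Rictor as accessory subunits. The Prr5 level was 2.81, 3.52 and 3.18 CPM in WT sham, 3.66, 4.48 and 4.59 CPM in T497A sham, 5.52, 7.06 and 6.29 CPM in WT TAC, and 3.66, 4.77 and 5.37 CPM in T497A TAC. WT sham was the lowest group and WT TAC the highest, with no overlap with any other, and the T497A groups overlapped each other between them. In WT the log2 fold change after TAC was 0.99 ± 0.17 (edgeR adjusted p = 0.00019). In T497A it was 0.12 ± 0.17 (adjusted p = 0.67). The interaction was -0.87 ± 0.24 (adjusted p = 0.013) and was called in all 21 alternatives. The 2 neighbours at the top of the order, T497A TAC and WT TAC, differed by -0.45 ± 0.16 (adjusted p = 0.045), a call that was lost in 12 of 23 alternatives. Of these, 9 left out 1 library, which was any WT sham library, T497A sham 2 or 3, WT TAC 2 or 3, or T497A TAC 1 or 2, and the highest adjusted p was 0.18, without T497A TAC library 1. At the bottom, T497A sham exceeded WT sham by 0.42 ± 0.17, which did not pass (adjusted p = 0.18).

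The Prr5l level was 1.01, 1.03 and 1.94 CPM in WT sham, 0.980, 1.01 and 1.10 CPM in T497A sham, 2.65, 3.85 and 1.90 CPM in WT TAC, and 1.87, 2.28 and 2.20 CPM in T497A TAC. Every TAC library of T497A lay above every sham library of T497A. In WT the groups touched, because sham library 3 was slightly above TAC library 3. Prr5l rose after TAC in both genotypes, by a log2 fold change of 1.07 ± 0.29 in WT (2.11-fold, edgeR adjusted p = 0.0061) and 1.04 ± 0.29 in T497A (2.06-fold, adjusted p = 0.019), where surgery and sex cannot be told apart. The rise in T497A was no longer called without T497A sham library 1, T497A sham library 2 or T497A TAC library 2, with adjusted p of 0.054, 0.052 and 0.064. The difference between the responses was -0.03 ± 0.41 (adjusted p = 0.96), an error wide enough that a sizeable difference would not have been detectable. The genotypes did not differ beyond the spread after sham (-0.37 ± 0.30, adjusted p = 0.55) or after TAC (-0.40 ± 0.28, adjusted p = 0.29). In WT, the rises of Prr5 and Prr5l were called in all 23 alternatives, library totals included.

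Phlpp1 (chr1:106171752-106394250, plus strand) and Phlpp2 (chr8:109868542-109944671, plus strand) encode the phosphatases of the hydrophobic motif. The Phlpp1 level was 39.3, 40.0 and 37.1 CPM in WT sham, 39.3, 40.4 and 35.1 CPM in T497A sham, 35.6, 32.9 and 31.9 CPM in WT TAC, and 44.6, 41.7 and 43.4 CPM in T497A TAC. The sham groups overlapped, the T497A TAC libraries were above every other library, and WT TAC library 1 reached just into the T497A sham range. In WT the log2 fold change after TAC was -0.21 ± 0.07 (edgeR adjusted p = 0.017). In T497A it was 0.17 ± 0.07 (adjusted p = 0.077). The interaction was 0.39 ± 0.10 (adjusted p = 0.0077), and T497A TAC exceeded WT TAC by 0.37 ± 0.07 (adjusted p = 0.00074). The fall in WT was not called without WT sham library 1, WT sham library 2 or WT TAC library 3 (adjusted p = 0.051, 0.061 and 0.068), and with library totals its sign turned (0.12). With library totals the difference between the TAC groups was 0.12 (adjusted p = 0.19) and the interaction 0.09 (adjusted p = 0.52).

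Phlpp2 had the smallest range over the groups with TMM factors. Its level was 11.0 to 11.4 CPM in WT sham, 10.6 to 11.5 CPM in T497A sham, 11.2 to 11.5 CPM in WT TAC and 10.4 to 12.6 CPM in T497A TAC. The group means spanned 0.024 on the log2 scale, against 1.36 for Prr5l, 0.98 for Prr5, 0.46 for Mtor and 0.37 for Phlpp1. The other members spanned 0.24 (Mlst8), 0.17 (Mapkap1), 0.14 (Pdpk1) and 0.13 (Rictor). With library totals this did not hold: Phlpp2 was then called higher in WT TAC than in WT sham (0.34, edgeR adjusted p = 0.0058) and lower in T497A TAC than in WT TAC (-0.26, adjusted p = 0.033). Prkca itself was at 44.4 ± 2.68 CPM in WT sham, 33.8 ± 2.40 in T497A sham, 50.3 ± 0.960 in WT TAC and 46.2 ± 3.59 in T497A TAC (SD, n = 3 each). It was lower in T497A than in WT after sham (log2 fold change -0.39 ± 0.07, edgeR adjusted p = 0.0056), as Mtor was. After TAC it rose in both genotypes, by 0.45 ± 0.07 in T497A (adjusted p = 0.00050) and by 0.18 ± 0.07 in WT (adjusted p = 0.049), where the call was lost in 12 of 23 alternatives. The interaction, 0.27 ± 0.10, did not pass (adjusted p = 0.061).

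**Figure D2:**
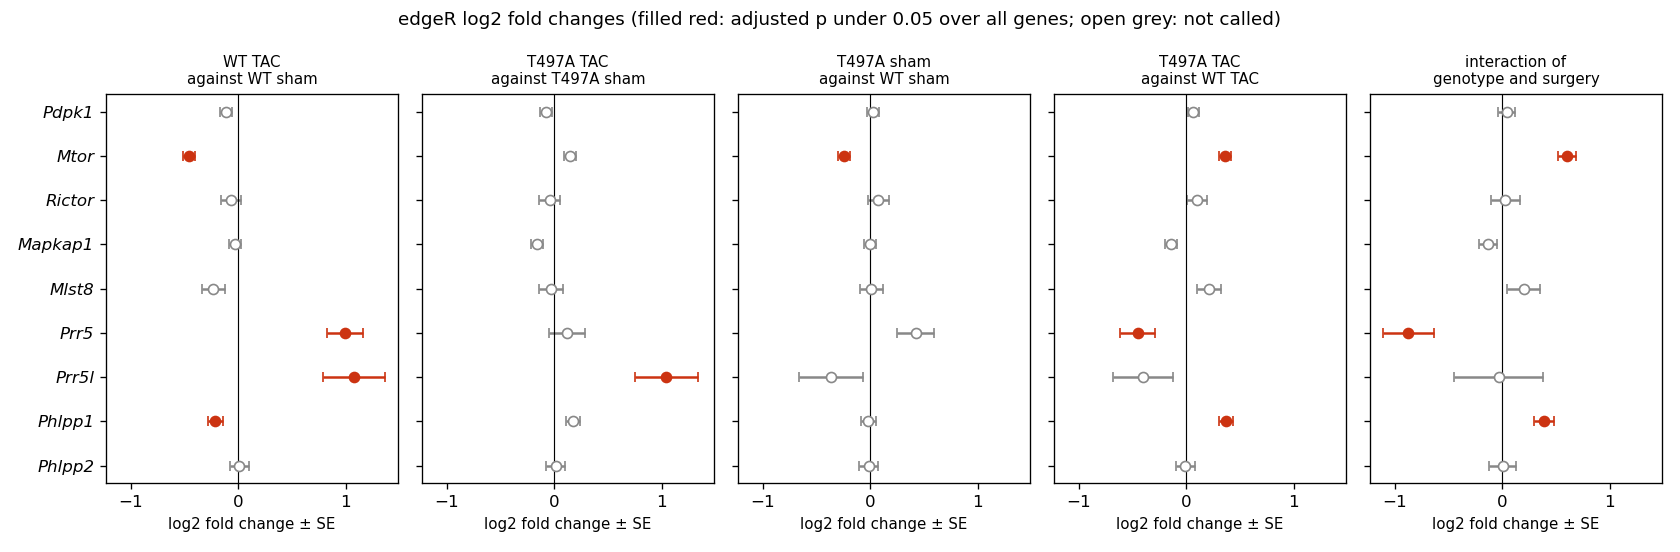
Log2 fold change with its standard error for the 9 genes in 4 pairwise comparisons and the interaction; filled red points passed an adjusted p of 0.05 over all genes tested, open grey points did not. Mtor, Prr5 and Phlpp1 are filled in the interaction panel, at 0.60, -0.87 and 0.39.

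T497A TAC against WT sham leaves out the group that carries Xist. Of all genes 10% were called there (6.12% higher and 3.9% lower), and no member was called by edgeR, although 4 had an unadjusted p under 0.05 (Prr5 0.0065, Mapkap1 0.010, Prr5l 0.036 and Phlpp1 0.038). DESeq2 called 2 members in that comparison and limma-voom called 3. WT TAC against WT sham and T497A TAC against WT TAC use none of the T497A sham libraries. Refitted without that group, the calls of Mtor, Prr5, Prr5l and Phlpp1 in WT after TAC were kept, as were those of Mtor and Phlpp1 between the TAC groups, while Prr5 between the TAC groups was at an adjusted p of 0.0501 in edgeR.

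Ratios between members of 1 library do not change with library scaling. Mtor to Pdpk1, the catalytic subunit of mTORC2 against the activation-loop kinase, was 1.375, 1.416 and 1.363 in WT sham and 1.084, 1.055 and 1.130 in WT TAC on the per-kb scale. It was 1.210, 1.134 and 1.095 in T497A sham and 1.314, 1.326 and 1.371 in T497A TAC. WT TAC thus lay below WT sham with no overlap, while T497A TAC lay above T497A sham. Mtor to Rictor was likewise lower in WT TAC (4.549, 4.087 and 5.126) than in WT sham (5.897, 5.808 and 6.242). For that ratio the T497A groups overlapped, at 4.338, 5.476 and 4.749 after sham and 5.41, 5.273 and 5.742 after TAC. Prr5 to Rictor was 1.17 ± 0.159 in WT sham, 1.52 ± 0.387 in T497A sham, 2.43 ± 0.252 in WT TAC and 1.66 ± 0.360 in T497A TAC (SD, n = 3 each), and each WT TAC library exceeded every other library. Phlpp1 to Phlpp2 was 4.31 ± 0.0907 in WT sham, 4.31 ± 0.489 in T497A sham, 3.69 ± 0.172 in WT TAC and 4.83 ± 0.386 in T497A TAC. WT TAC overlapped T497A sham, whose library 3 stood at 3.82, and neither of the other groups. Phlpp1 to Pdpk1 overlapped between WT sham (0.9242, 1.033 and 0.8608) and WT TAC (0.9321, 0.8804 and 0.8127). In T497A that ratio was higher after TAC (1.097, 1.029 and 1.11) than after sham (0.9246, 0.9713 and 0.8248). Mapkap1 to Pdpk1 was 1.95 ± 0.118 in WT sham, 1.91 ± 0.132 in T497A sham, 2.07 ± 0.0137 in WT TAC and 1.79 ± 0.0759 in T497A TAC. These ratios were given as descriptions: an exact test of 3 libraries against 3 cannot fall below 0.1.

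**Figure D3:**
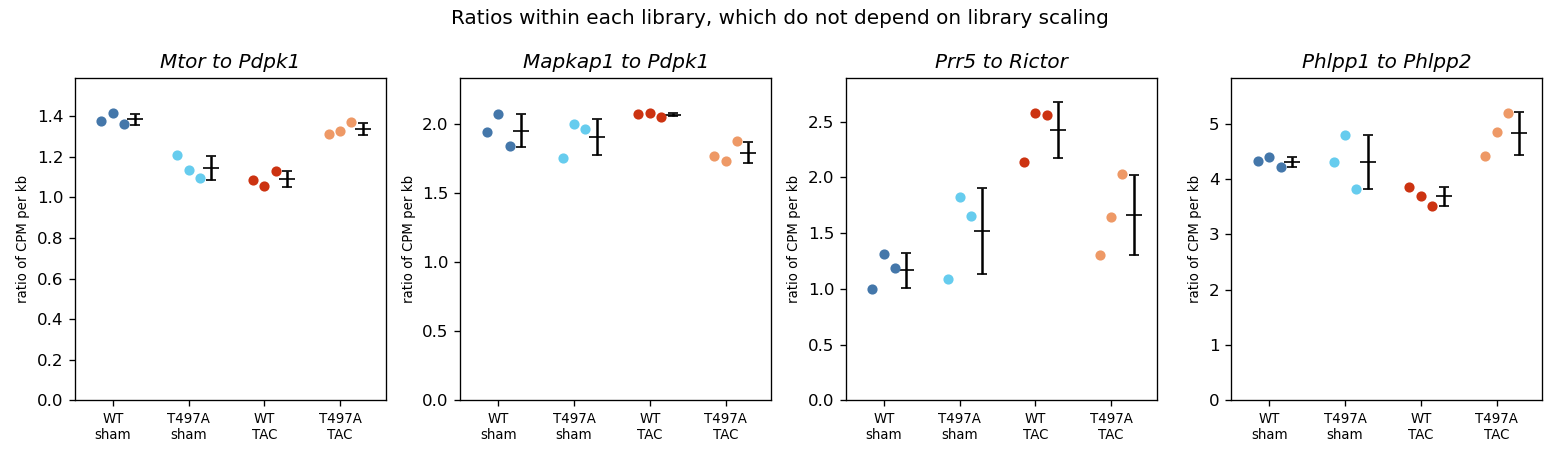
Ratios of CPM per kb between members within each library, by group, with mean and SD of 3 libraries; the axes start at 0. Mtor to Pdpk1 has a mean of 1.09 in WT TAC and 1.385 in WT sham, and Prr5 to Rictor has its highest mean, 2.43, in WT TAC.

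The absolute direction of the members with small changes depends on the scaling. With TMM factors the median log2 fold change of all genes between WT TAC and WT sham was 0.03, and with library totals it was 0.36. Of the 9 members, 3 were above 0 with TMM factors and 8 with library totals. Prr5 and Prr5l were above 0 with both and Mtor was below 0 with both. Pdpk1, Rictor, Mapkap1, Mlst8 and Phlpp1 were below 0 with TMM factors and above 0 with library totals. On that scale 6 members were called and all were higher after TAC: Prr5, Prr5l, Phlpp2, Pdpk1 (0.22, edgeR adjusted p = 0.0041), Rictor (0.26, adjusted p = 0.048) and Mapkap1 (0.30, adjusted p = 0.00023). Mtor and Phlpp1 were not called on it.

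**Figure D4:**
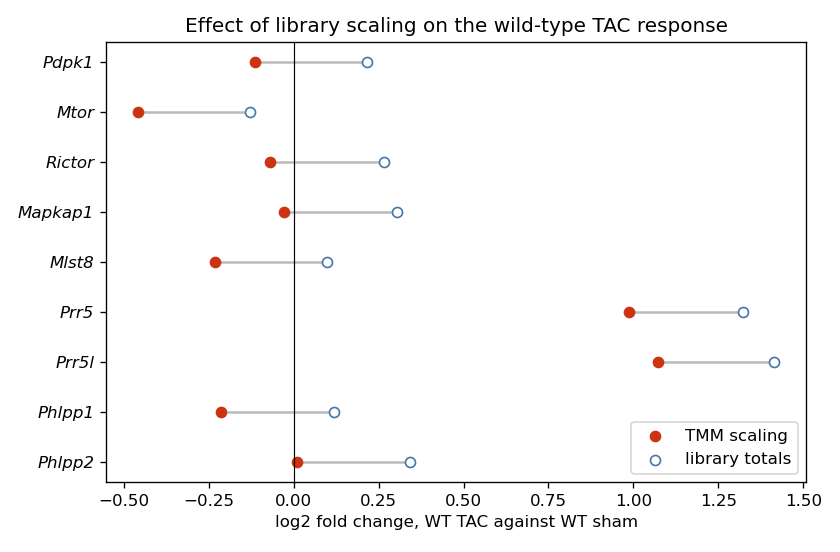
Log2 fold change of each member between WT TAC and WT sham with TMM factors (filled) and with library totals (open). All points move to the right with library totals; Mtor alone stays below 0, at -0.13, and Phlpp1 moves from -0.21 to 0.12.

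The genes around the members were followed through lists of their complexes, inputs, and substrates with related kinases. Their counts are read against the shares of all genes called: 25.9% higher and 24% lower in WT after TAC, 12.9% and 11.4% in T497A after TAC, and 17.8% and 17.9% in T497A against WT after TAC. Differences between such counts were not tested, and in T497A the sham group also differs from the TAC group in sex. Of 6 genes of mTORC1 and mTOR assembly, 0 rose and 3 fell in WT after TAC with TMM factors, whereas 2 rose and 0 fell with library totals. Deptor, which encodes an inhibitor bound to mTOR, fell in WT (log2 fold change -0.48 ± 0.07, edgeR adjusted p = 3.0e-05) and was higher in T497A TAC than in WT TAC (0.37 ± 0.07, adjusted p = 0.00059). With library totals these values were -0.15 and 0.12, and neither was called. Of 22 inputs to mTOR, 3 rose and 11 fell in WT (8 and 6 with library totals), and 1 rose and 7 fell in T497A (1 and 5). Over the list the median was -0.15 in WT and -0.03 in T497A, beside medians over all genes of 0.03 and 0.0035.

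Among these inputs are the sestrins, which restrain mTORC1 when leucine is short or stress is high. Sesn1 fell after TAC in both genotypes, by 0.83 ± 0.09 in WT (edgeR adjusted p = 2.5e-06) and by 0.70 ± 0.09 in T497A (adjusted p = 6.9e-05) on the log2 scale. In T497A sham, the group that carries Xist, Sesn1 exceeded WT sham by 0.42 ± 0.09 (edgeR adjusted p = 0.011). That call was lost without WT sham library 3 (adjusted p = 0.062). Between T497A TAC and WT sham, Sesn1 was not called. Sesn2, its stress-induced relative, rose by 0.71 ± 0.11 in WT (adjusted p = 0.00010) and by 0.39 ± 0.11 in T497A (adjusted p = 0.023). The Sesn2 rise in T497A was not called without T497A sham library 2 or 3 or T497A TAC library 2 or 3 (highest adjusted p = 0.076). Between the TAC groups, where 35.7% of all genes were called, 8 of the 22 inputs were higher and 2 lower in T497A (2 and 10 with library totals).

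The substrates of PDK1 and mTORC2 changed in both directions. Of the 9 protein kinase C genes, 5 rose and 2 fell in WT after TAC (5 and 1 with library totals), and 5 rose and none fell in T497A (6 and none). In WT, Prkcb rose (log2 fold change 1.33 ± 0.24, edgeR adjusted p = 0.00033), Prkcd rose (1.25 ± 0.17, adjusted p = 7.2e-05) and Prkce fell (-0.85 ± 0.09, adjusted p = 3.3e-06). Prkcb encodes another conventional isoform, and the other genes encode the isoforms delta and epsilon, both known from cardiac stress responses. Prkce was higher in T497A TAC than in WT TAC (0.65 ± 0.09, adjusted p = 8.9e-05), and its interaction was 0.80 ± 0.13 (adjusted p = 0.00042). Of 16 other kinases of the AGC family, not all of which PDK1 activates, 5 rose and 3 fell in WT (11 and 3 with library totals). Rps6ka1, which encodes the kinase RSK1, rose (1.04 ± 0.14, adjusted p = 1.8e-05), and its relative Rps6ka2 fell (-1.14 ± 0.27, adjusted p = 0.0056). In T497A, 1 rose and 2 fell. Akt2, the Akt isoform tied to insulin signalling, fell in both genotypes, with -0.77 ± 0.07 in WT (adjusted p = 1.2e-06) and -0.39 ± 0.07 in T497A (adjusted p = 0.0015). Its interaction was 0.38 ± 0.10 (adjusted p = 0.014), and 0.081 with library totals (adjusted p = 0.49).

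Upstream of PDK1, PI3K makes the lipid that recruits PDK1 and Akt to the membrane, and lipid phosphatases remove it. Of 17 genes listed around PI3K and lipid phosphatases, not all of which act on that lipid, 5 rose and 4 fell in WT after TAC (12 and 0 with library totals). Pik3r5, a regulatory subunit of PI3K gamma, rose (log2 fold change 2.02 ± 0.28, edgeR adjusted p = 3.2e-05), as did Inpp5d, which encodes the phosphatase SHIP1 of blood cells (1.39 ± 0.18, adjusted p = 3.8e-05). Macrophage markers were higher in the same libraries, and their part in these rises was not tested. Between the TAC groups 6 of the 17 genes were lower in T497A and none was higher (10 and none with library totals), a number called that is near the 35.7% of all genes.

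Factors that fold, dephosphorylate or degrade protein kinase C make up a list of 11 genes. In WT, 3 of them rose and 5 fell after TAC (5 and 0 with library totals), beside 49.9% of all genes called. In T497A edgeR called none of the 11, beside 24.4% of all genes. There 1 gene had an unadjusted p under 0.05, and DESeq2 and limma-voom called 1 each. The difference between these counts was not tested. Ppp2r1a, the scaffold subunit of the phosphatase PP2A, fell in WT (log2 fold change -0.43 ± 0.06, edgeR adjusted p = 3.7e-05), as did Hsp90ab1, a chaperone on which newly made protein kinase C depends (-0.37 ± 0.08, adjusted p = 0.0017). With library totals these values were -0.10 and -0.04, and neither was called. Of 9 genes for partners of PHLPP, 2 rose in WT (6 with library totals), and 2 rose and 1 fell in T497A. The gene that fell was Fkbp5, a co-chaperone that brings PHLPP to Akt and is induced by glucocorticoids. Its log2 fold change between T497A TAC and T497A sham was -1.91 ± 0.32 (adjusted p = 0.0028), where surgery and sex cannot be told apart. In T497A sham, the group that carries Xist, it exceeded WT sham by 1.67 ± 0.32 (adjusted p = 0.018), a call lost without WT sham library 1, WT sham library 2 or T497A sham library 1 (highest adjusted p = 0.076).

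For the 3 members with the widest range, the genes with the most similar pattern were found by the root mean square difference of centred log2 CPM over the 12 libraries, among 12360 genes. For Prr5l they were Trim30d (0.215), Coro1a (0.221) and Btbd19 (0.242). Coro1a encodes an actin-binding protein of leukocytes. For Prr5 they were Kcnk6 (0.143), Tle3 (0.144) and Adam15 (0.147). For Mtor they were Adh5 (0.0483), Wdr5 (0.0550) and Cul2 (0.0598). These differences describe 12 libraries that share group, depth and scaling, and carry no test.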

How the data were processed

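Messenger RNA libraries (KAPA mRNA HyperPrep, single-end reads) were made from 12 left ventricle samples, per the labels. The authors trimmed, aligned and counted the reads with Trim Galore 0.6.4, STAR 2.7.3a and featureCounts (Subread 1.6.3), per the submitters' processing notes, which name the builds mm10 and GRCh38. The annotation release and the strand setting were not stated there or in the labels. The deposited values are raw counts per gene.

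Genes were filtered with filterByExpr, libraries scaled with TMM, and all 12 fitted in edgeR 4.0.16 (R 4.3.3) with 1 mean per group, using the robust quasi-likelihood F test and adjustment over 17699 genes. The fit was checked on simulated data. Gene models are GENCODE M21 (54349 of 55401 IDs matched with their version). The 9 members and the 7 pathway lists were chosen with earlier results of these data known. From each list, the 2 largest called rises and falls with a mean of at least 1 CPM could be named. Alternatives were DESeq2 1.42.0 (test and size factors), limma-voom (limma 3.58.1), library totals, other filters, robust estimation off, a replicate block, a fit of only 2 groups, and leaving out each library. A fit without T497A sham and one on autosomal protein-coding genes were chosen after seeing the data. P-values of the main fit rest on the spread between samples of the same group, pooled over the 4 groups. The labels number the 3 samples of a group as separate hearts.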

Additional observations from a re-analysis of the deposited data

Results flagged for a closer look

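In 3 of the 9 genes the response to TAC differed between the genotypes by a test of the difference itself, the interaction term in edgeR, adjusted over all genes tested, of which 29.5% were called. For Mtor the T497A response exceeded the WT response by 0.60 on the log2 scale (adjusted p = 0.00014): the TAC effect was -0.46 in WT and 0.15 in T497A, where it did not pass. For Prr5 the difference was -0.87 (adjusted p = 0.013), with 0.99 in WT and 0.12 in T497A. For Phlpp1 it was 0.39 (adjusted p = 0.0077), with -0.21 in WT and 0.17 in T497A, where it did not pass (adjusted p = 0.077). With library totals the Phlpp1 difference was 0.09 and was not called (adjusted p = 0.52), and the WT value turned to 0.12, while the differences of Mtor and Prr5 were still called. Each difference includes the T497A sham libraries, which carry Xist, so sex cannot be told apart from genotype or surgery in it.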

How the results depend on the processing

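Of 1404 member values under 21 planned and 2 added alternatives, 1243 kept their direction and their side of the threshold. The call changed in 89. The sign turned in 81, of which 10 were called in at least 1 of the analyses compared and 71 in neither, and 23 of the 81 came with library totals. The 10 were, with library totals, Pdpk1, Rictor, Mapkap1 and Phlpp1 for WT TAC against WT sham, Pdpk1 for T497A TAC against WT TAC, Pdpk1, Mtor, Mapkap1 and Phlpp1 for WT TAC against T497A sham, and Pdpk1 for the interaction. Each of these values moves by construction with the scaling.

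The log2 fold changes whose sign turned with library totals follow for the members, Prkca and the pathway genes that could be named in a comparison. Other pathway genes are not listed, and the medians of some lists turned too. For WT TAC against WT sham they gave Pdpk1 0.22, Rictor 0.26, Mapkap1 0.30, Mlst8 0.098, Phlpp1 0.12 and Pik3r4 0.0057. For T497A sham against WT sham they gave Mapkap1 0.042, Phlpp1 0.030 and Phlpp2 0.035. For T497A TAC against WT TAC they gave Pdpk1 -0.18, Rictor -0.15, Mlst8 -0.038 and Rptor -0.021. For T497A TAC against WT sham they gave Pdpk1 0.033 and Mlst8 0.060. For WT TAC against T497A sham they gave Pdpk1 0.14, Mtor 0.067, Rictor 0.14, Mapkap1 0.26, Mlst8 0.038, Phlpp1 0.090, Rptor 0.023 and Inppl1 0.056. For the interaction they gave Pdpk1 -0.26, Rictor -0.28, Mlst8 -0.098, Phlpp2 -0.29, Pik3r4 -0.033 and Prkca -0.031. In the other settings that kept all libraries or dropped a group, the values that turned passed in neither analysis. With the filter of 1 CPM in 6 libraries, Mapkap1 was 0.00074 for T497A sham against WT sham, and Phlpp2 was -0.021 for the interaction. With DESeq2 size factors, Phlpp2 was -0.0025 for WT TAC against WT sham, and Phlpp2 was -0.0097 for T497A TAC against WT sham. With the DESeq2 test, Phlpp2 was -0.0024 for WT TAC against WT sham, and Phlpp2 was -0.0098 for T497A TAC against WT sham. With limma-voom, Rictor was 0.023 and Phlpp2 was -0.020 for T497A TAC against T497A sham, and Mapkap1 was 0.0070 and Mlst8 was -0.022 for T497A sham against WT sham, and Phlpp2 was -0.037 for T497A TAC against WT sham, and Prr5l was 0.049 and Phlpp2 was -0.048 for the interaction. With only the 2 groups compared, Phlpp2 was -0.0013 for WT TAC against WT sham. With the replicate block, Phlpp2 was -0.0027 for T497A TAC against WT sham. With the T497A sham group left out, Phlpp2 was -0.00022 for T497A TAC against WT sham. With 1 library left out, the values that turned sign also passed in neither analysis, and their ranges over the 12 libraries left out in turn follow. In WT TAC against WT sham the ranges were Phlpp2 -0.0081 to 0.021. In T497A TAC against T497A sham the ranges were Rictor -0.14 to 0.089, Mlst8 -0.11 to 0.069, Prr5 -0.0092 to 0.26 and Phlpp2 -0.073 to 0.067. In T497A sham against WT sham the ranges were Pdpk1 -0.020 to 0.055, Rictor -0.058 to 0.18, Mapkap1 -0.033 to 0.045, Mlst8 -0.091 to 0.086, Prr5l -0.53 to 0.015, Phlpp1 -0.061 to 0.040 and Phlpp2 -0.037 to 0.024. In T497A TAC against WT TAC the ranges were Phlpp2 -0.096 to 0.044. In T497A TAC against WT sham the ranges were Mlst8 -0.099 to 0.024, Phlpp2 -0.088 to 0.052 and Prkca -0.0051 to 0.11. In WT TAC against T497A sham the ranges were Mapkap1 -0.076 to 0.0011 and Phlpp2 -0.016 to 0.044. In the interaction the ranges were Rictor -0.072 to 0.16, Prr5l -0.41 to 0.27 and Phlpp2 -0.082 to 0.059.

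The number of members called changed as follows. For WT TAC against WT sham (4) it was 6 with library totals, 6 with limma-voom and 5 with the DESeq2 test. For the interaction (3) it was 4 with library totals. For T497A TAC against WT TAC (3) it was 4 with library totals and 4 with limma-voom. In that comparison the filter of 1 CPM in 6 libraries added Mapkap1 (edgeR adjusted p = 0.029). The call of Prr5 between the TAC groups was lost with no filter, with only the 2 groups compared and without the T497A sham group. For T497A TAC against T497A sham (1) it was 2 with DESeq2 size factors, 3 with library totals, 2 with the DESeq2 test, 3 with limma-voom, 2 with the filter of 1 CPM in 6 libraries and 2 with autosomal protein-coding genes. For T497A sham against WT sham (1) it was 0 with library totals. For T497A TAC against WT sham (0) it was 2 with library totals, 2 with the DESeq2 test, 3 with limma-voom, and 1 with no filter, with the filter of 1 CPM, with the replicate block and with only the 2 groups compared. For WT TAC against T497A sham (5) it was 3 with no filter and 3 with only the 2 groups. There limma-voom lost Phlpp1 (adjusted p = 0.12), and the filter of 1 CPM in 6 libraries lost Pdpk1 (edgeR adjusted p = 0.0503). With 1 library left out the counts ran from 3 to 4 for WT TAC against WT sham, 0 to 2 for T497A TAC against T497A sham, 0 to 1 for T497A sham against WT sham, 2 to 3 for T497A TAC against WT TAC, 0 to 1 for T497A TAC against WT sham, 3 to 5 for WT TAC against T497A sham, and stayed at 3 for the interaction.

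Same-numbered samples did not deviate together (correlations -0.113 to 0.0742, and 2 of 12 libraries correlated best with their own number). The main fit therefore did not pair them by number, although this check cannot exclude a pairing with small effects. The replicate block added Prr5 to T497A TAC against WT sham (0.53, adjusted p = 0.029) and changed no other count of members. Over all genes, the 1024 calls between the sham groups became 1697 with DESeq2, 546, 505 and 537 without WT sham libraries 1, 2 and 3, 679 and 592 without T497A sham libraries 1 and 3, and 1607 without WT TAC library 2. The 1773 calls of T497A TAC against WT sham became 2725 with DESeq2, 3969 with limma-voom, 2992 with only the 2 groups, and 623 to 2812 with 1 library left out. The 4315 calls of T497A TAC against T497A sham became 2840 without T497A TAC library 2. With library totals the share of calls that were higher went from 51.8 to 81.7% (WT TAC against WT sham), 51.7 to 66.1% (sham groups), 49.9 to 17.5% (TAC groups), 61.1 to 82.7% (T497A TAC against WT sham), 51 to 77.7% (WT TAC against T497A sham) and 51.7 to 17.1% (interaction). The counts of Prr5l, 56 to 293 per library, limit its precision.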
